A study of Mus musculus with 10 samples.

Results

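Loss of the NF-κB subunit p65 in mouse hepatocytes was measured here over both states of the transcription factor Nrf2. All 10 libraries of the series entered the comparison. The 5 p65-deficient libraries were 2 p65 KO and 3 DKO (p65 and Nrf2 deleted together), and the 5 p65-intact libraries were 3 controls and 2 Nrf2 KO. A model with p65 status and Nrf2 status as separate terms was fitted to every gene, and the p65 term is the log2 fold change of deficient over intact libraries with the Nrf2 difference held apart. The groups were taken from the labels alone, not from any measured value. The question it addresses is how gene expression differed with p65 on average over both Nrf2 states, a comparison of 5 against 5 libraries in place of 2 against 3 (p65 KO against control) or 3 against 2 (DKO against Nrf2 KO).

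The mice were adult males aged 8 to 9 weeks. Control mice (C57BL/6J) carried no floxed allele, Nrf2 KO mice were Nrf2 flox/flox, p65 KO mice were p65 flox/flox, and DKO mice were floxed at both genes. Every mouse, the controls included, had received AAV8Cre, an adeno-associated virus that expresses Cre from the hepatocyte-specific thyroxine-binding globulin promoter, so virus and recombinase were shared by all 4 groups and other liver cells should have kept both genes. Livers were perfused with Liberase 12 days later, and hepatocytes were purified by low-speed centrifugation and a Percoll step. The share of hepatocytes that recombined was not measured here, and each group holds only 2 or 3 libraries.

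p65, encoded by Rela, is the NF-κB subunit that carries the main transactivation domain. In resting cells inhibitors of the IκB family hold it in the cytoplasm, and kinases that answer to TNF, IL-1 and bacterial products release it to the nucleus. In hepatocytes it is known for inducing acute-phase proteins, chemokines, and genes that protect the cell from TNF-induced death, while Nrf2, encoded by Nfe2l2, drives genes of glutathione synthesis and detoxification.

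The libraries held 33707165 to 49897382 counts (median 37043490.5) over 21939 genes, and 13641 genes with at least 10 counts in all were tested. Values below are normalized counts, that is counts scaled to a common library size, and they compare libraries for 1 gene, not genes with each other. A gene counted as called when its adjusted p did not exceed 0.05 and its term was 1 or more, or −1 or less, on the log2 scale. On the first principal component, with 39.5% of the variance, the intact libraries lay between −20.35 and −10.62, the DKO libraries between 3.23 and 12.3, and the p65 KO libraries at 31.9 and 28.8. Libraries of a group came from separate mice.

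Neither targeted gene was lower in total where it was deleted. Rela (ENSMUSG00000024927, GRCm39 chromosome 19, 5687493 to 5698161) gave 1221, 1276 and 1269 in the control libraries, 1268 and 1225 in Nrf2 KO, 1183 and 1209 in p65 KO and 1488, 1241 and 1034 in DKO, a p65 term of −0.03 ± 0.10 (log2 ± SE, edgeR quasi-likelihood test, adjusted p = 0.863). Nfe2l2 gave 2318, 1991 and 1990.2 in the control libraries, 4739 and 5005 in Nrf2 KO, 1993 and 1997 in p65 KO and 4111, 3434 and 5239.5 in DKO, a p65 term of −0.13 ± 0.11 (adjusted p = 0.452), with all 5 Nrf2-deficient libraries above the 5 others. The table holds 1 total per gene, deleted exons were not counted apart, and so these totals do not check the deletions. Of 208 tested genes within 5 Mb of Rela, 3 were called higher (Gm49405, Ccdc85b and Ccdc88b) and Chka lower, 1.92% in all.

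The p65 term called 732 of 13641 genes, 5.37% of those tested. Of these, 635 (4.66%) were higher and 97 (0.711%) lower in the p65-deficient libraries. By the adjusted p alone, whatever the size, 995 genes (7.29%) were higher and 647 (4.74%) lower. The called higher genes had low levels, with a median of 27.1 normalized counts, against 459 for the called lower genes. Among the 10185 genes with a mean of at least 50, 213 were called higher and 87 lower. In 405 of the 732 genes the 5 deficient and the 5 intact libraries did not overlap (349 higher, 56 lower). Over all tested genes, 659 (4.83%) had all deficient above all intact libraries and 553 (4.05%) all below. The count of called genes rested in part on single libraries: it was 276 without p65 KO 1, 312 without p65 KO 2, 420 without control 2, 436 without control 1 and 476 without control 3.

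**Figure D1:**
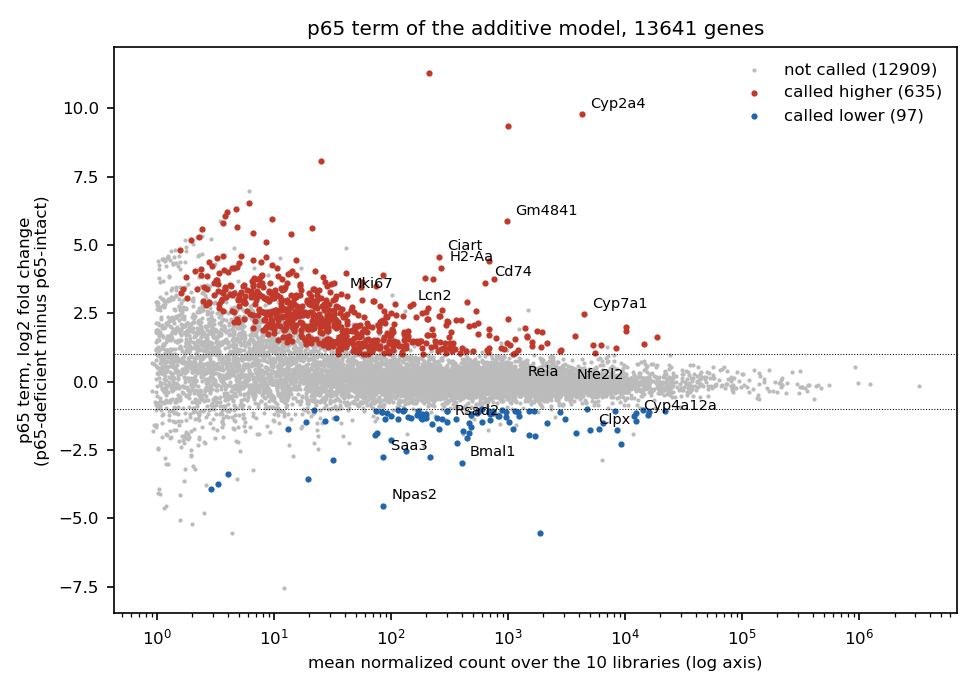
The p65 term of each tested gene (log2 fold change of p65-deficient over p65-intact libraries, y axis) against its mean normalized count (x axis, log scale), with called genes in color. The 635 genes called higher lie mostly at low counts, and the 97 called lower at higher counts.

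Nearly all called genes pointed the same way with and without Nrf2, but they moved further with Nrf2 present. Of the 732 genes, 731 had the same sign in p65 KO against control and in DKO against Nrf2 KO, contrasts that share no library. The model that gave the p65 term used all 4 groups, so this agreement was partly built in. The called higher genes had a median log2 fold change of 2.62 with Nrf2 intact and 1.78 with Nrf2 deficient, and 485 of the 635 were larger with Nrf2 intact. For the called lower genes the medians were −1.77 and −0.99, and 77 of 97 were larger with Nrf2 intact.

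Genes chosen in 1 contrast were then read in the other, which shares no library with it. With Nrf2 intact 899 genes (6.59%) were called, 689 of them higher (5.05%), and 619 of the 689 (89.8%) were also positive in the Nrf2-deficient contrast, where their median was 1.04 against 2.45. The 210 lower genes (1.54%) kept their sign in 167 cases (79.5%), with medians of −1.45 and −0.41. Over all tested genes 64.2% had the same sign in both contrasts. With Nrf2 deficient only 59 genes (0.433%) were called, and 29 of the 40 higher and 14 of the 19 lower had the same sign in the other contrast. The difference between the contrasts, tested as the interaction, passed an adjusted p of 0.05 in 64 genes (0.469%), 11 of which the p65 term also called. Both counts depended on tool and library: DESeq2 called 292 genes with Nrf2 deficient and found 400 with an interaction, and with 1 library left out the ranges were 18 to 81 and 8 to 127. The lowest of each was without Nrf2 KO 2.

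**Figure D2:**
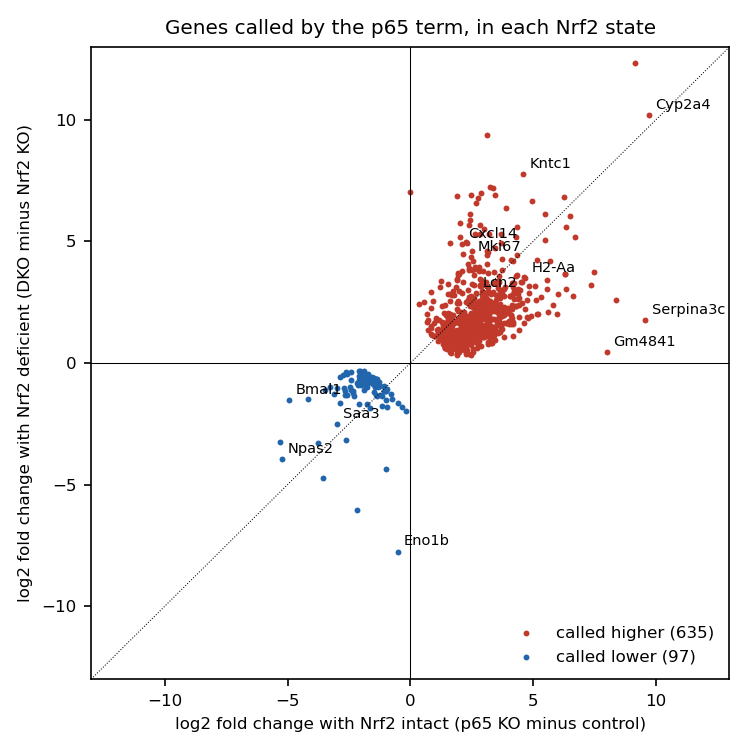
For each gene called by the p65 term, the log2 fold change of DKO over Nrf2 KO (y axis) against that of p65 KO over control (x axis). Colors give the direction of the call, and genes that were not called are not drawn. The drawn genes fill the upper right and lower left quadrants, which the choice by the p65 term favors. Of the 635 higher genes 485, and of the 97 lower genes 77, have the larger change on the x axis.

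Called by the p65 term and, with the same sign, by each contrast on its own were 19 genes, 16 higher and 3 lower. The higher genes were the class II antigen presentation genes H2-Eb1, H2-Aa, H2-Ab1, Cd74 and Ctss, the macrophage protein gene Cd5l, the mitotic genes Mki67, Ccna2 and Ccnb1, the siderophore-binding protein gene Lcn2, the chemokine gene Cxcl14, the secreted growth factor gene Nrg4, the nicotinamide methyltransferase gene Nnmt, and Armcx4, Tspan7 and Fam53b. Saa3, an acute-phase apolipoprotein, Rsad2 (viperin), an interferon-induced antiviral enzyme, and Clpx, a mitochondrial chaperone that acts in heme synthesis, were the 3 lower ones. Calls of the 2 contrasts overlapped little in number: the 23 genes called in both, whatever the sign, were 2.56% of the genes called with Nrf2 intact and 39.0% of those called with Nrf2 deficient, shares that move with the count of 59. A further 194 genes were called by the p65 term and by neither contrast, 181 higher and 13 lower.

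MHC class II genes were higher in the p65-deficient libraries in both Nrf2 states. They encode the αβ dimers that present peptides to CD4+ T cells, the invariant chain Cd74 that escorts them, and Ctss, the protease that cleaves Cd74. Of 10 tested genes of the list, 8 were called higher (4.66% of all tested genes were), none lower, and H2-DMb2 and H2-Ob were not called. The median p65 term was 3.36, against 0.0086 over all tested genes, and the medians were 3.92 with Nrf2 intact and 2.60 with Nrf2 deficient.

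In normalized counts, H2-Aa (GRCm39 chromosome 17, 34493404 to 34506798), the α chain of I-A, gave 16.6, 53.1 and 31.8 in the control libraries, 30.6 and 14.5 in Nrf2 KO, 972 and 785 in p65 KO and 296, 321 and 134 in DKO. The deficient libraries were all above the intact ones, and the 3 DKO libraries were all below the 2 p65 KO libraries (p65 term 4.17 ± 0.38, adjusted p = 0.00069). H2-Ab1 (chromosome 17, 34476663 to 34488393), the I-A β chain, gave 15.5, 47.2 and 30.8 in the control libraries, 32.6 and 32.3 in Nrf2 KO, 725 and 603 in p65 KO and 308, 344 and 157 in DKO. Its log2 fold change was 4.40 ± 0.39 with Nrf2 intact and 3.05 ± 0.43 with Nrf2 deficient. For Cd74 the values were 55.2, 112 and 111 in the control libraries, 113 and 82.4 in Nrf2 KO, 2146 and 1603 in p65 KO and 944, 811 and 409.6 in DKO, with a p65 term of 3.63 ± 0.34 (adjusted p = 0.000733), the same separation with DKO between the intact and the p65 KO libraries. H2-Eb1 had a p65 term of 3.79 ± 0.34, Ctss one of 2.85 ± 0.29, and Ciita, the transactivator of these genes, one of 3.45 ± 0.71.

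The promoters of the I-A and I-E genes are shown because class II promoters are known for a Y box, the inverted CCAAT element bound by NF-Y. Its letters CTGATTGG, searched on both strands in the 250 bases before the start of each gene's canonical transcript (GENCODE M39), were found in 3 of the 10 class II genes and in 4.88% of 13637 promoters of that length. Each line runs 5′ to 3′ along the gene's strand, from 250 bases before the start to the base before it, with the Y box in capitals.

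H2-Aa (chr17:34506798-34507047, GRCm39, minus strand): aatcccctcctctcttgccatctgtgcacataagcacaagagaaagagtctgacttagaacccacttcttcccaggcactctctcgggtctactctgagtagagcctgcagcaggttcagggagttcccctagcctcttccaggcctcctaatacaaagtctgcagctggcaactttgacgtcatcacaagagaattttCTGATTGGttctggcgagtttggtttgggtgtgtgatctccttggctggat
H2-Ab1 (chr17:34481933-34482182, GRCm39, plus strand): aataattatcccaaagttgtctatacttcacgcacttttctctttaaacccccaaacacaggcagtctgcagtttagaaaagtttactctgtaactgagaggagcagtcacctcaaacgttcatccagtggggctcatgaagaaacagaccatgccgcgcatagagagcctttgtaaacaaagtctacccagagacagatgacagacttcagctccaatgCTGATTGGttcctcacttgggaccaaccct
H2-Eb1 (chr17:34524563-34524812, GRCm39, plus strand): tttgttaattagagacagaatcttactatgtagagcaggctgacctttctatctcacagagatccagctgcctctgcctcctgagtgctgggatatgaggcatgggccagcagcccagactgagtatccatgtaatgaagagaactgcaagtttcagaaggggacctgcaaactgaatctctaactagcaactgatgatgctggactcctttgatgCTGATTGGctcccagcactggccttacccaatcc

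In H2-Aa the match lay 51 to 44 bases before the start, in H2-Ab1 30 to 23 and in H2-Eb1 34 to 27. A match is a run of letters, not a measured site.

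Class II genes belong mainly to antigen-presenting cells, and markers of such cells were higher in the same libraries. The Kupffer cell list (resident liver macrophages) had 13 of 14 genes called higher. The sum over all 14 overlapped, at 3486 to 5672 normalized counts in the intact and 3987 to 10322 in the deficient libraries. Without the remaining gene, the abundant Slc40a1, it was 268 to 980 and 1754 to 6334, a sum over genes that had already been called. Marco, a scavenger receptor, gave 15.5, 17.7 and 18.7 in the control libraries, 13.8 and 2.42 in Nrf2 KO, 262 and 165 in p65 KO and 119.9, 88.6 and 33.2 in DKO (p65 term 3.50 ± 0.43). Cd5l, secreted by tissue macrophages, gave 68.5, 163 and 148 in the control libraries, 124 and 42.8 in Nrf2 KO, 1519 and 1033 in p65 KO and 519, 443 and 365 in DKO (p65 term 2.90 ± 0.32, adjusted p = 0.00165), and Cd163, the hemoglobin scavenger receptor, gave 8.83, 23.6 and 19.6 in the control libraries, 24.7 and 4.85 in Nrf2 KO, 251 and 126 in p65 KO and 68.4, 77.4 and 92.7 in DKO (p65 term 2.97 ± 0.43). Slc40a1, an iron exporter of macrophages and hepatocytes alike, was the marker not called (p65 term −0.10 ± 0.14). As for class II, DKO libraries lay between intact and p65 KO libraries for all 3 genes.

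Markers of other non-parenchymal cells were higher too. Sinusoidal endothelial markers had 12 of 14 genes called higher, with sums of 1035 to 2575 in intact and 2790 to 7363 in deficient libraries. That count was 4 without p65 KO 1, 6 without p65 KO 2 or control 2, and 7 without control 1, control 3 or Nrf2 KO 2. Stellate cell and fibroblast markers had 7 of 13 called higher, with overlapping sums of 230 to 534 and 516 to 2785. The number was 3 without p65 KO 1 or p65 KO 2, 4 without control 1, control 3 or DKO 2, and 11 without DKO 3. Monocyte and dendritic cell markers had 6 of 12 called higher, with sums of 212 to 400 and 371 to 854, and only 1 without p65 KO 1 or p65 KO 2, 2 without any control or DKO 2, and 3 without either Nrf2 KO library.

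Lymphocyte and granulocyte markers were near the limit of these libraries. T and NK cell markers had none of 12 called, with sums of 26.1 to 78.1 in intact and 48.2 to 170.4 in deficient libraries, and Cd3d, Gzma and Klrb1c were at 0 in every intact library. Neutrophil markers had 1 of 6 called (Csf3r), with sums of 2.80 to 8.89 and 10.3 to 75.2, and B cell markers 1 of 7 (Cd22), with overlapping sums of 92.8 to 395 and 78.2 to 471. Neither call held without p65 KO 1. None of the 4 cholangiocyte or the 6 erythroid markers was called.

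Hepatocyte markers, of the labelled cell type, had none of 19 called and a median p65 term of 0.05. Their sums were 4.37e+06 to 6.94e+06 in intact and 5.02e+06 to 5.72e+06 in deficient libraries. Ass1 (0.42 ± 0.11) and Cps1 (0.43 ± 0.13) passed the adjusted p but not the fold threshold. Ass1 did not pass without control 1, control 2 or DKO 2, and Cps1 not without any 1 control, DKO 2 or DKO 3. Neither passed under the replicate block. Markers that are alike in both groups do not measure how pure the preparations were. In these bulk samples more cells of a type and more RNA per cell cannot be told apart. The part of other cells in the class II, chemokine, cell cycle and interferon results was not tested.

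**Figure D3:**
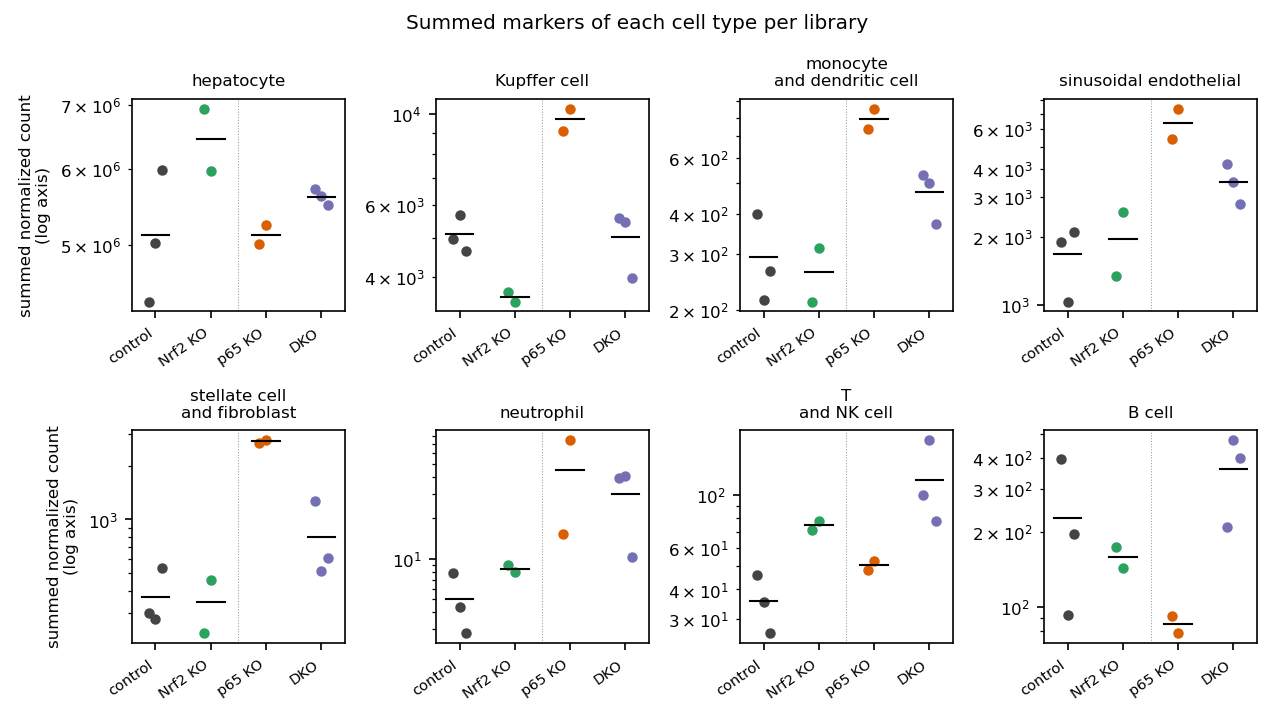
Summed normalized counts of each cell-type marker list (y axis, log scale) in the 10 libraries, grouped by genotype. Endothelial sums are separated between intact and deficient libraries. Kupffer sums (all 14 genes) are highest in p65 KO but overlap between DKO and control, and hepatocyte sums overlap.

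Acute-phase genes went in both directions. Of 27 plasma proteins made by hepatocytes in inflammation, 4 were called higher (Lcn2, Orm2, Saa1 and Saa2) and Saa3 lower, with a median term of 0.28. Without p65 KO 2, only 2 were called higher. Saa3 (GRCm39 chromosome 7, 46361422 to 46365576) gave 229.7, 92.4 and 124 in the control libraries, 119.6 and 165 in Nrf2 KO, 19.3 and 17.96 in p65 KO and 32.6, 26.9 and 14.9 in DKO (p65 term −2.74 ± 0.32, adjusted p = 0.00197). No deficient library reached the lowest intact one, and the 2 contrasts gave −2.99 ± 0.47 and −2.51 ± 0.42.

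Lcn2 (chromosome 2, 32274645 to 32278264), which starves bacteria of iron, gave 47.5, 19.7 and 28.95 in the control libraries, 18.8 and 57.4 in Nrf2 KO, 185 and 222 in p65 KO and 344, 266 and 245 in DKO (p65 term 2.78 ± 0.30, adjusted p = 0.00155). Its log2 fold change was 2.88 ± 0.45 without Nrf2 and 2.67 ± 0.42 with it (interaction adjusted p = 0.918). Orm2, α1-acid glycoprotein 2, gave 224, 108 and 136 in the control libraries, 197 and 194 in Nrf2 KO, 547 and 659.7 in p65 KO and 1141, 304 and 1109.9 in DKO (p65 term 2.04 ± 0.33). Saa1 and Saa2, the circulating serum amyloids, had p65 terms of 1.47 ± 0.34 and 1.70 ± 0.37, so the 3 serum amyloid genes did not share a direction. These paralogs are similar in sequence, and how reads were split between them was not examined.

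The Lcn2 promoter is shown because Lcn2 is a textbook target of NF-κB and still rose. The κB consensus was found in 4 of 27 acute-phase promoters (Lcn2, Lbp, Cfb and Steap4) and in 4.36% of all 13637, searched on both strands. In the line below the capitals mark the match, which is on the strand opposite to the gene.

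Lcn2 (chr2:32277810-32278059, GRCm39, minus strand): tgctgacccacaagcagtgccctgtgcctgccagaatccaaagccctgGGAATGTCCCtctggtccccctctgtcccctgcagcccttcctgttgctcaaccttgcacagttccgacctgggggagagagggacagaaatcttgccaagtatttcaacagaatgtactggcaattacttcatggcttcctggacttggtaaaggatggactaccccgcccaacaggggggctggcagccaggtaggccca

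The match lay 202 to 193 bases before the start, and whether p65 was bound there was not measured.

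Chemokines, cytokines and adhesion molecules had 8 of 23 tested genes called higher and none lower, with a median term of 1.22. The count fell to 3 without control 2, p65 KO 1 or p65 KO 2, and to 5 without control 1 or Nrf2 KO 2. Cxcl14, a chemokine of epithelia, gave 4.42, 4.92 and 7.47 in the control libraries, 0 and 2.42 in Nrf2 KO, 22.4 and 27.4 in p65 KO and 47.3, 30.3 and 50.3 in DKO (p65 term 3.24 ± 0.64, adjusted p = 0.0139). Vcam1, an adhesion receptor, had a p65 term of 2.38 ± 0.45 and Ccl6, a macrophage chemokine, one of 2.31 ± 0.45. Icam1, a receptor for leukocyte integrins, had one of 0.76 ± 0.15, under the fold threshold.

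Of 21 subunits, kinases and inhibitors of NF-κB none was called, and their median term was −0.01. Over all tested genes 5.37% were called, and a list this small cannot tell none from that share. Chuk (−0.28 ± 0.07, adjusted p = 0.0309) and Nfkbib (0.34 ± 0.09, adjusted p = 0.0396) passed the adjusted p of the edgeR test. Both terms were under the fold threshold, and neither passed under the replicate block. Nfkbib also failed to pass without any 1 control, DKO 1 or DKO 2, and Chuk without control 1, control 2 or DKO 2. Nfkb1, the p50 precursor, gave 714, 679.5 and 687 in the control libraries, 775 and 636 in Nrf2 KO, 567 and 523 in p65 KO and 796, 710.3 and 612 in DKO (p65 term −0.17 ± 0.11, adjusted p = 0.322). Of 30 genes of TNF death signalling and the Bcl2 family, Bcl2a1b and Pmaip1 were called higher (6.67%, near the 4.66% of all tested genes called higher). Both have few counts, and Pmaip1, which encodes the BH3-only protein Noxa, gave 1.104, 0.983 and 0 in the control libraries, 0.989 and 0 in Nrf2 KO, 8.13 and 3.78 in p65 KO and 7.36, 4.49 and 1.14 in DKO. Bcl2a1b, an antiapoptotic member, gave 0, 3.93 and 0 in the control libraries, 0 and 1.62 in Nrf2 KO, 17.3 and 18.9 in p65 KO and 8.42, 3.37 and 2.29 in DKO. Both calls were lost when any 1 control, DKO 1 or DKO 2 was left out, and also under the replicate block.

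Interferon-inducible genes were called in both directions. Rsad2 gave 459, 531 and 272 in the control libraries, 486 and 437 in Nrf2 KO, 208 and 166 in p65 KO and 165, 125 and 119 in DKO (p65 term −1.46 ± 0.20, adjusted p = 0.00436), and Ifit3, which binds viral RNA, gave 319, 372 and 269 in the control libraries, 512 and 560.2 in Nrf2 KO, 263 and 299 in p65 KO and 168, 126 and 120.1 in DKO (p65 term −1.06 ± 0.29). The deficient libraries were all below the intact ones for Rsad2. Among genes outside the list that were looked up after their values were seen, Cmpk2, the neighbor of Rsad2, was lower by the same test (p65 term −1.36 ± 0.22), as were Trim30d (−1.08 ± 0.24), Trim34a (−1.19 ± 0.22) and Trim12a (−1.03 ± 0.17). Called higher were the macrophage transcription factor gene Irf8 and the GTPase genes Irgm2, Igtp, Tgtp1 and Gm4841, 5 of 33 tested.

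Calls of this list were not stable. Ifit3 had a log2 fold change of −0.19 ± 0.19 with Nrf2 intact and −1.96 ± 0.19 with Nrf2 deficient (interaction adjusted p = 0.0221). The lower calls numbered 3 without control 3 or p65 KO 2 and 1 without each of the other 8 libraries. The number of higher calls was 0 without control 1, 1 without control 2, control 3, p65 KO 1 or p65 KO 2, and 9 without Nrf2 KO 1 or DKO 3, and 7 list genes passed the interaction test. Gm4841 gave 9.94, 23.6 and 20.5 in the control libraries, 24.7 and 17.8 in Nrf2 KO, 4480.2 and 5104 in p65 KO and 27.4, 38.2 and 20.6 in DKO, so that the DKO libraries lay close to the intact ones. Among MHC class I and immunoproteasome genes, 11 of 18 passed the adjusted p with a positive term, but only Psmb9, a catalytic subunit of the immunoproteasome, also passed the fold threshold. Psmb9 gave 294, 332 and 349 in the control libraries, 364 and 264 in Nrf2 KO, 658 and 865 in p65 KO and 732, 754 and 402 in DKO (p65 term 1.12 ± 0.18, adjusted p = 0.00775).

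**Figure D4:**
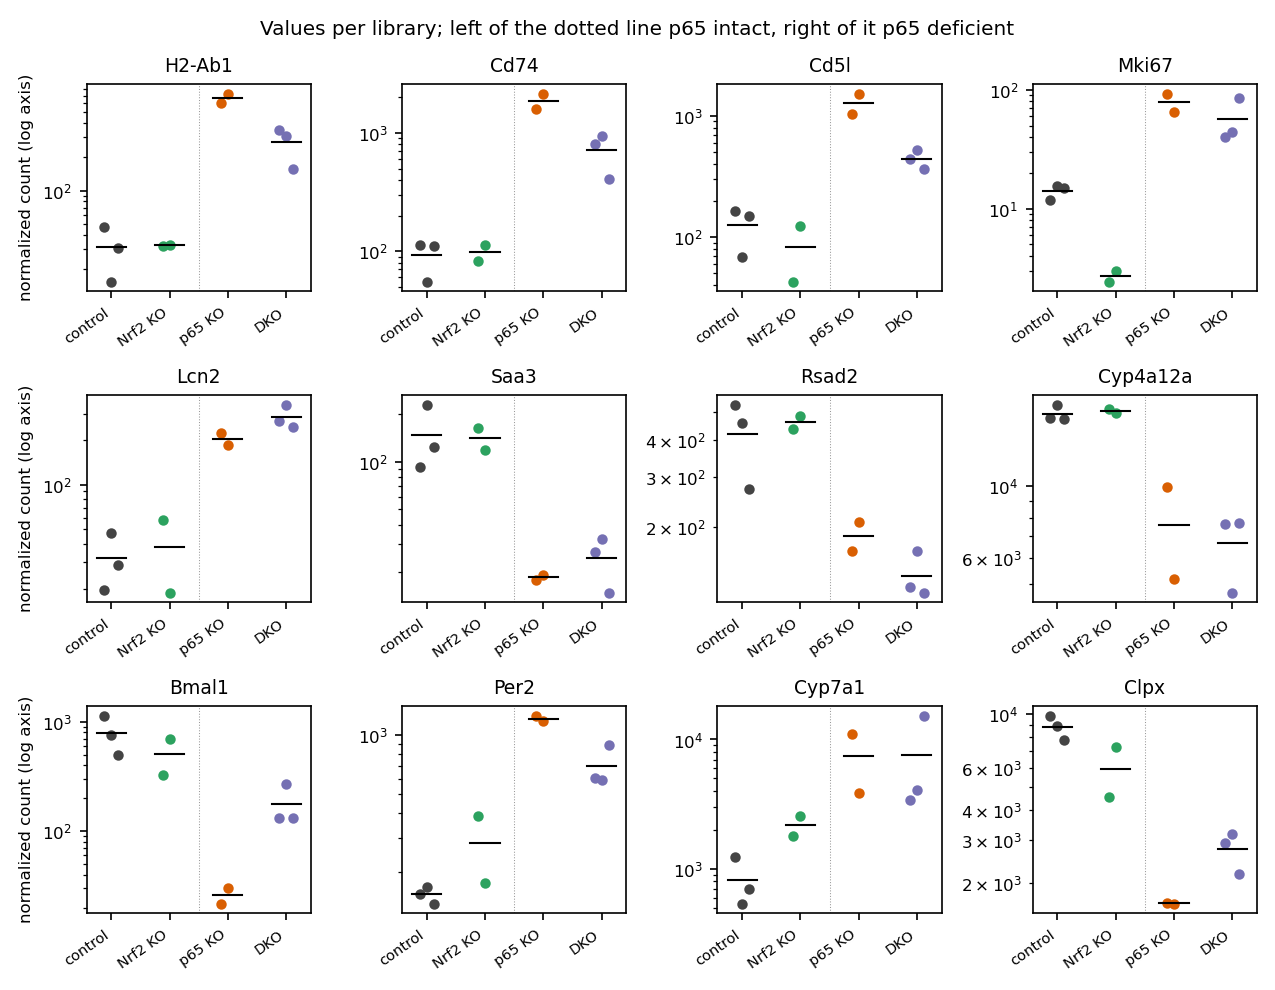
Normalized counts (y axis, log scale) of selected genes in each of the 10 libraries, by genotype. Saa3, Rsad2, Cyp4a12a, Bmal1 and Clpx are lower in all 5 p65-deficient libraries than in any intact one, and H2-Ab1, Cd74, Cd5l, Mki67, Lcn2, Per2 and Cyp7a1 are higher.

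Most cell cycle genes were higher in the p65-deficient libraries. Of 36 tested genes 21 were called higher and 1, the cyclin-dependent kinase inhibitor gene Cdkn1a (p21), lower (p65 term −1.73 ± 0.34), with a median of 2.19. Without p65 KO 2 the called higher genes numbered 10. Mki67 (chromosome 7, 135291513 to 135318299), the Ki-67 proliferation antigen, gave 15.5, 11.8 and 14.9 in the control libraries, 2.97 and 2.42 in Nrf2 KO, 65.02 and 92.6 in p65 KO and 44.2, 40.4 and 85.8 in DKO (p65 term 3.20 ± 0.43, adjusted p = 0.00405). It was the lowest in the Nrf2 KO libraries, and its log2 fold change was 4.34 ± 0.57 with Nrf2 deficient and 2.48 ± 0.43 with Nrf2 intact (interaction adjusted p = 0.293). Top2a, the topoisomerase of replicating cells, gave 16.6, 2.95 and 14.9 in the control libraries, 1.98 and 5.66 in Nrf2 KO, 61.97 and 78.4 in p65 KO and 39.97, 30.3 and 78.95 in DKO (p65 term 3.04 ± 0.51). Cdkn1a gave 297, 447 and 263 in the control libraries, 750.4 and 187 in Nrf2 KO, 119.9 and 75.6 in p65 KO and 129, 113 and 195 in DKO. Levels of the mitotic genes were low in all libraries, and which cells carried them cannot be read from bulk RNA.

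Clock genes moved in opposite arms. In the liver, Bmal1 with Clock or Npas2 activates Per, Cry and the PAR bZIP genes through E-boxes, and the Per and Cry proteins then repress the activators. The genes are split below into those that peak with Bmal1 and those that peak with Per2, at about opposite times of day. Virus injection and tissue collection both took place before noon, and the exact hour per mouse is not given in the sources used here. Of the 6 genes that peak with Bmal1, 3 were called lower (Bmal1, Npas2 and Nfil3), with a median of −1.13. Of the 13 that peak with Per2, 7 were called higher (Per1, Per2, Per3, Tef, Ciart, Bhlhe40 and Usp2), with a median of 1.93. Each count was smaller without p65 KO 1 or p65 KO 2, 1 and 4 genes, and the second was also 4 without control 1. With Nrf2 intact 4 of the 6 and 12 of the 13 were called (medians −1.68 and 2.50), with Nrf2 deficient 0 of either (medians −0.81 and 0.86). Intact and deficient libraries did not overlap for 4 of the 6 and 3 of the 13. Dbp, not called, gave 45.3, 54.1 and 426 in the control libraries, 87.0 and 1719 in Nrf2 KO, and 1271, 1621 and 2437 in DKO.

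Npas2 gave 117, 410.1 and 44.8 in the control libraries, 221 and 25.1 in Nrf2 KO, 9.14 and 0.945 in p65 KO and 5.26, 11.2 and 6.87 in DKO (p65 term −4.53 ± 0.84). Bmal1 (chromosome 7, 112806152 to 112914735) gave 758, 1129.9 and 498 in the control libraries, 700.0 and 323 in Nrf2 KO, 30.5 and 21.7 in p65 KO and 270.3, 132 and 130.4 in DKO (p65 term −2.96 ± 0.64, adjusted p = 0.0187), with log2 fold changes of −4.93 ± 0.56 with Nrf2 intact and −1.52 ± 0.42 with Nrf2 deficient. The Bmal1 call did not hold without p65 KO 1 or p65 KO 2, whereas that of Npas2 held whichever library was left out. Per2 (chromosome 1, 91343700 to 91387069), which represses the activators, gave 168, 155 and 138 in the control libraries, 177 and 386 in Nrf2 KO, 1178 and 1256 in p65 KO and 589, 607 and 897 in DKO (p65 term 2.14 ± 0.32, adjusted p = 0.00636). Ciart, a repressor that acts on the same complex, gave 20.98, 10.8 and 23.3 in the control libraries, 3.95 and 37.2 in Nrf2 KO, 997 and 759 in p65 KO and 47.3, 145 and 503 in DKO (p65 term 4.58 ± 0.71). The deficient libraries were all above the intact ones for Per2 and Ciart.

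Promoters of Ciart and Per2 are shown as examples of the clock elements in the list. The E-box CACGTG, which reads the same on both strands, was found in 5 of the 13 promoters (Per1, Tef, Ciart, Bhlhe40 and Usp2) against 7.57% of all, and the D-box TTATGTAA, searched on both strands, in 2 (Per2 and Per3) against 0.601%. Capitals mark the E-boxes in Ciart and the D-box in Per2.

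Ciart (chr3:95789557-95789806, GRCm39, minus strand): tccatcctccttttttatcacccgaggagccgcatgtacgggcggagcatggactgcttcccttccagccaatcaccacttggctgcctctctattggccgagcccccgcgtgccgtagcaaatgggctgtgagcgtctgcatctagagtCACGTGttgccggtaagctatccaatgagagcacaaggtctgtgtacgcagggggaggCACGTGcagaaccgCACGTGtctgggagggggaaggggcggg
Per2 (chr1:91387047-91387296, GRCm39, minus strand): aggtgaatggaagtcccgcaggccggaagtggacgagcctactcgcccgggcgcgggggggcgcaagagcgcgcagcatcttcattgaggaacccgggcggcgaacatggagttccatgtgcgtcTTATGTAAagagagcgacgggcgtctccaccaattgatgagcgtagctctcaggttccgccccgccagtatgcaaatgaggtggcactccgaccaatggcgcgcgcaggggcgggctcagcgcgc

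Ciart held 3 E-boxes, 100 to 95, 42 to 37 and 28 to 23 bases before its start, and the D-box of Per2 lay 125 to 118 bases before its start.

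Of drug-metabolism genes 12.0% were called higher, against 4.66% of all tested genes. Among sex-biased genes, 29.4% of the female-biased were called higher. Of the male-biased 13.6% were called lower, against 0.711% of all tested genes. In liver the male and female pulse patterns of growth hormone set these genes. Male-biased genes had 3 of 22 called lower and 1, Moxd1, higher. Their median p65 term was −0.12, with 14 terms negative and 8 positive. The medians by state differed in sign, −0.41 with Nrf2 intact and 0.34 with Nrf2 deficient. Moxd1 gave 0, 0 and 0.934 in the control libraries, 0.989 and 0 in Nrf2 KO, 1.02 and 3.78 in p65 KO and 174, 8.98 and 21.7 in DKO, mostly from DKO 1, and its call was lost without control 1, control 2, either Nrf2 KO or either p65 KO library. Cyp4a12a, a male-specific fatty acid hydroxylase, gave 17849, 16282 and 16154 in the control libraries, 16829.6 and 17316 in Nrf2 KO, 5182 and 9971 in p65 KO and 4688, 7632 and 7713 in DKO (p65 term −1.25 ± 0.19, adjusted p = 0.0062), with the 5 deficient libraries below the 5 intact. The other lower genes were Hsd3b5 (−1.06 ± 0.22) and Elovl3 (−2.28 ± 0.54), and without Nrf2 KO 1 only 1 gene was lower.

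Female-biased genes had 5 of 17 called higher, 2 without either p65 KO library and 3 without any 1 control or DKO 2. The median p65 term of the list was 0.31, with 11 terms positive and 6 negative. The steroid hydroxylase Cyp2a4 gave 8.83, 4.92 and 47.6 in the control libraries, 2.97 and 0.808 in Nrf2 KO, 18096 and 17985 in p65 KO and 1648, 5039 and 11.4 in DKO, so that DKO 3 stayed in the intact range while both p65 KO libraries were far above it. Cyp2a4 is nearly identical to Cyp2a5, and the split of reads between them is uncertain. Cyp2a5, Cyp2b10 and Por were the 3 of 25 drug-metabolism genes called higher. Intact and deficient libraries overlapped for Cyp2a5 and Cyp2b10, and both lost their call with p65 status alone in the model. Cyp2a5 gave 10066, 4659 and 5153 in the control libraries, 1059 and 1897 in Nrf2 KO, 28927 and 36009 in p65 KO and 2149, 2538 and 9577 in DKO. Por, the reductase that feeds electrons to all microsomal P450 enzymes, gave 5487, 4520.5 and 6088 in the control libraries, 4388 and 5117 in Nrf2 KO, 12138 and 17875 in p65 KO and 6498, 8346 and 13582 in DKO (p65 term 1.24 ± 0.20, adjusted p = 0.0078).

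**Figure D5:**
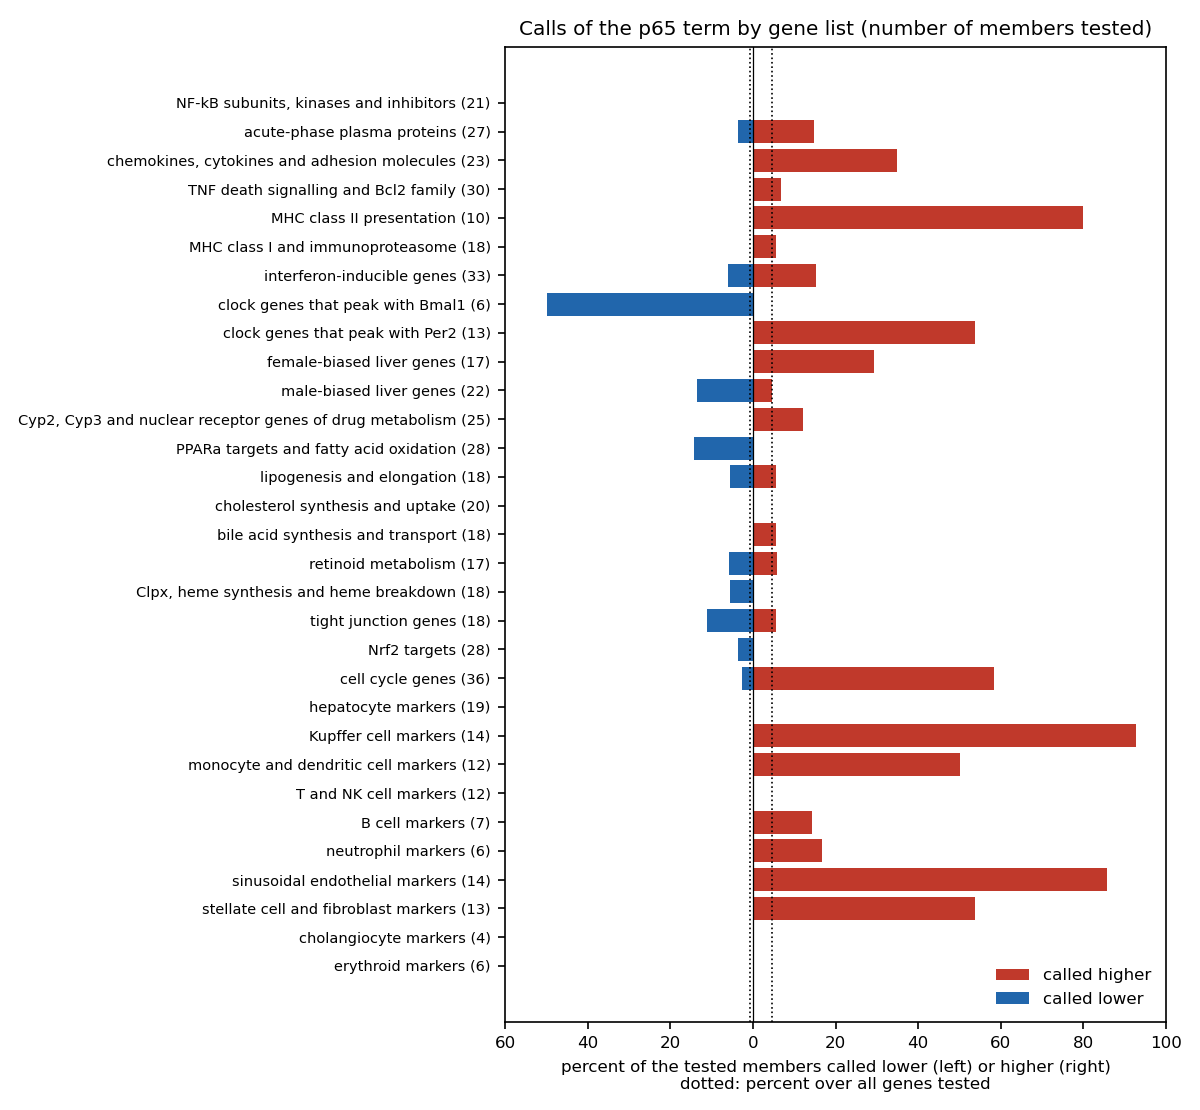
For each gene list, the percent of tested members that the p65 term called lower (left) or higher (right), on the x axis. Dotted lines mark the percent over all tested genes. The Kupffer, sinusoidal endothelial and class II lists have the largest percent called higher (92.9%, 85.7% and 80.0%). The hepatocyte, NF-kB and cholesterol lists are among those with none called.

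Lipid and bile acid lists differed in the share of their genes that was called. Cyp7a1 (chromosome 4, 6265612 to 6275633), the rate-limiting enzyme of bile acid synthesis, gave 539, 1236 and 704 in the control libraries, 2549.7 and 1799 in Nrf2 KO, 3882 and 10954 in p65 KO and 4044, 3393 and 15217 in DKO (p65 term 2.48 ± 0.49, adjusted p = 0.0141). It was higher in every deficient than in every intact library, it spread widely within groups, and it was the only 1 of 18 bile acid genes called (5.56%, near the 4.66% of all tested genes called higher). PPARα targets and fatty acid oxidation genes had 4 of 28 called lower (14.3%, against 0.711% of all tested genes) and a median of −0.38. Plin2, which coats lipid droplets, gave 27866, 21408 and 21306 in the control libraries, 14529 and 12994 in Nrf2 KO, 9118 and 8621 in p65 KO and 8759, 8869 and 8717 in DKO (p65 term −1.03 ± 0.15), and Vnn1, Pdk4 and Ehhadh were the others. Their number was 1 without p65 KO 1 or p65 KO 2, 2 without control 1, 7 without Nrf2 KO 2 and 9 without DKO 3. None of 20 cholesterol genes was called (median 0.18), and of 18 lipogenesis genes Thrsp was higher (5.56%) and Elovl3 lower. The Elovl3 call was lost without Nrf2 KO 1, p65 KO 1 or p65 KO 2, and 2 lipogenesis genes were lower without control 1, Nrf2 KO 2 or DKO 3.

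Clpx (chromosome 9, 65201540 to 65239568) was the 1 gene called among 18 of heme synthesis and breakdown (5.56%, near the 5.37% of all tested genes called). It gave 8909.5, 9831 and 7825 in the control libraries, 7332 and 4522 in Nrf2 KO, 1639.7 and 1644 in p65 KO and 3179, 2909.5 and 2168 in DKO (p65 term −1.77 ± 0.26, adjusted p = 0.0062). Every deficient library was below every intact one, and the change was −2.43 ± 0.23 with Nrf2 intact against −1.11 ± 0.21 with Nrf2 deficient, a difference that missed the threshold (interaction adjusted p = 0.0978). The retinoid list had Lrat, which stores retinol as ester, called higher and Retsat, which saturates retinol, lower, among 17. Each was 5.88% of the list, against 4.66% of all tested genes called higher and 0.711% called lower. Both calls were lost when any 1 control or p65 KO library was left out.

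Tight junction genes had 2 of 18 called lower (11.1%, against 0.711% of all tested genes) and Jam2 higher (5.56%, near the 4.66% of all tested genes). Cldn1, a strand-forming claudin, gave 4331, 4820.4 and 3730.1 in the control libraries, 4418 and 3957 in Nrf2 KO, 1385 and 924 in p65 KO and 2762, 2269 and 2052 in DKO (p65 term −1.36 ± 0.21), and Tjp3, the scaffold ZO-3, gave 841, 1017 and 823 in the control libraries, 835 and 727 in Nrf2 KO, 242 and 154 in p65 KO and 559, 376 and 408 in DKO (p65 term −1.47 ± 0.27). Both were lower in all deficient libraries, and both calls held whichever library was left out. Jam2, which endothelial cells also express, had a term of 1.80 ± 0.35 and was not called without p65 KO 1.

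Nrf2 targets, read with the Nrf2 difference taken out, had 1 of 28 genes called (3.57%, under the 5.37% of all tested genes called). This was Gclc, the catalytic subunit of the first enzyme of glutathione synthesis, with 27771, 22722 and 18703 in the control libraries, 10523 and 9409 in Nrf2 KO, 10823 and 7563 in p65 KO and 5111, 5326 and 4599.9 in DKO (p65 term −1.16 ± 0.14, adjusted p = 0.00292). The p65 KO libraries overlapped those of Nrf2 KO, and DKO was below all other libraries. The list's median p65 term was −0.15.

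Beyond the lists, 12 genes per direction were named for the size of their term, at a mean of at least 50 and with no overlap between the 5 deficient and the 5 intact libraries. Among those not yet described were Sod3, the extracellular superoxide dismutase (3.48 ± 0.50), and Cybb, the phagocyte oxidase subunit (2.95 ± 0.41), both higher. Lower ones were Nat8f7 (−2.55 ± 0.61), Rfx4 (−2.14 ± 0.40), Slc25a30 (−1.98 ± 0.41), Chka, choline kinase (−1.94 ± 0.33), Ndrg1 (−1.89 ± 0.31), Tubb2a (−1.86 ± 0.41) and Lgalsl (−1.81 ± 0.30). Chka gave 2527, 3533 and 1591 in the control libraries, 2481 and 1651 in Nrf2 KO, 463 and 386 in p65 KO and 1215, 631 and 655 in DKO. Nat8f7 lost its call without p65 KO 1 or DKO 2, and Slc25a30 and Tubb2a lost theirs without p65 KO 1 or p65 KO 2.

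A few other genes were picked after their values were seen, since the deficient libraries all lay on 1 side of the intact ones. Nrg4 gave 131, 102 and 115 in the control libraries, 79.1 and 139.8 in Nrf2 KO, 635 and 721 in p65 KO and 274, 366 and 492 in DKO (p65 term 2.17 ± 0.22), and Nnmt gave 1023, 401 and 700.4 in the control libraries, 914 and 884 in Nrf2 KO, 1799 and 2353 in p65 KO and 3518, 4503 and 3219 in DKO (p65 term 1.81 ± 0.23). The metallothioneins Mt1 and Mt2, which bind zinc, had terms of 1.60 ± 0.33 and 2.31 ± 0.40. Lpin1, a phosphatidate phosphatase, had one of 1.87 ± 0.30 and Pfkfb3, which sets the rate of glycolysis, one of 2.09 ± 0.28. On the lower side were Coq8a, of coenzyme Q synthesis (−1.44 ± 0.22), and Crot, the peroxisomal carnitine transferase (−1.06 ± 0.17).

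A large p65 term did not always mean a difference in both states. Serpina3c, with the lowest p of all genes, gave 7.73, 9.83 and 1.87 in the control libraries, 0 and 1.62 in Nrf2 KO, 4586 and 5314 in p65 KO and 6.31, 1.12 and 2.29 in DKO (p65 term 9.34 ± 0.52). The DKO libraries lay among the intact ones at 6.31 or less, so its term, like that of Gm4841, rested on the p65 KO libraries. The log2 fold change of Serpina3c was 9.58 ± 0.35 with Nrf2 intact and 1.76 ± 1.12 with Nrf2 deficient. Its term was thus close to the Nrf2-intact value and not to an average of both. Serpina3c has close paralogs, and reads may be shared among them. The substrain marker Nnt, which C57BL/6J mice carry in a damaged form, gave 703, 767 and 709.8 in the control libraries, 1046 and 536 in Nrf2 KO, 2581 and 1941 in p65 KO and 1333, 698 and 1174 in DKO (p65 term 1.04 ± 0.27), with overlapping groups. Its call was lost when any 1 control, Nrf2 KO 2 or either p65 KO library was left out, and the other substrain gene, Wdfy1, was not called. Whether the floxed lines and the controls differ in strain background was not tested.

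Of the 80 genes named by the rule that were called, 54 passed the adjusted p without each of the 10 libraries in turn. These included the named class II genes, Cd74, Ctss, Cd5l, Marco, Lcn2, Orm2, Saa3, Rsad2, Clpx, Mki67, Top2a, Npas2, Per2, Ciart, Cyp7a1, Cyp4a12a, Gclc, Plin2, Cldn1, Tjp3 and Chka.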

How the data were processed

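RNA from freshly isolated hepatocytes was sequenced from poly-A selected, stranded libraries (single-end), 10 in all. The authors quantified reads with Salmon 1.10.3 on GRCm39 and analysed them with DESeq2 1.42.1. The deposited table holds 1 value per gene and library. Although called normalized, its values behave as estimated counts rounded to whole numbers (totals differ between libraries), and the step from transcript to gene values is not given in the sources used here. The expected counts were used as deposited.

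Genes with at least 10 summed counts (13641) were tested with the quasi-likelihood F-test of edgeR 4.0.16 (R 4.3.3, TMM scaling, Benjamini-Hochberg adjustment over all tested genes). The p65 term came from an additive model of p65 and Nrf2 status, and the 2 contrasts within Nrf2 states and their interaction from a model of 4 genotypes. SEs are the log2 fold change over the square root of F. Calls needed an adjusted p of no more than 0.05 and an absolute log2 fold change of 1 or more. Replicate libraries differed by more than sampling noise (chi-square per degree of freedom 46.87 to 215.4). The scripts were tested on simulated counts.

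Named genes were Rela and Nfe2l2, the 12 largest called changes per direction with a mean of at least 50 and no overlap of groups, up to 4 members per list with the lowest p, and 5 genes with opposite signs in the 2 states; some genes these rules chose are not reported here. The comparison and the gene lists were chosen with earlier results of these data known. Coordinates and 250-base promoters are from GENCODE M39 (GRCm39), which matched 21926 of 21939 identifiers. Alternatives were DESeq2 1.42.0, limma 3.58.1 (pseudocount 1), other scalings and filters, a replicate block, other model terms, and each library left out.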

Additional observations from a re-analysis of the deposited data

Results flagged for a closer look

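For 6 of the named genes the effect of p65 differed between the Nrf2 states, by the interaction term over all genes (edgeR). Values are the log2 fold change with Nrf2 deficient minus that with Nrf2 intact. Gm4841, an interferon-inducible GTPase gene, had −7.577 (adjusted p = 7.89e-05), since only the p65 KO libraries were high. Retsat had 1.774 (adjusted p = 0.0159), being lower in p65 KO than in control and little changed between DKO and Nrf2 KO, where its log2 fold changes were −2.11 and −0.33.

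The other 4 were named for opposite signs in the 2 states. Mup12, a major urinary protein gene with many near-identical copies, had 3.396 (adjusted p = 0.000357), with log2 fold changes of −1.42 with Nrf2 intact and 1.98 with Nrf2 deficient. Tmem51 had −3.59 (adjusted p = 0.000806), Zfp982 6.758 (adjusted p = 0.00408) and Efhd2 −1.59 (adjusted p = 0.00794). For Zfp982 the normalized count was 1.98 and 0 in Nrf2 KO but 61.0 to 199.6 elsewhere, so its fold change is not precise.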

How the results depend on the processing

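The 732 called genes, with 635 higher and 97 lower, stayed within 1.5 times under the other tools, scalings, filters and model terms, except that the replicate block left 418 higher. Under DESeq2 the genes called with Nrf2 deficient rose from 59 to 292 and those with an interaction from 64 to 400. Scaling by library totals only gave 140 interaction genes. No filter gave 112 genes with Nrf2 deficient and 143 with an interaction. The cause of these differences was not tested. Replicate numbers did not pair the libraries (correlations of deviations −0.232 to 0.113). The replicate block called 492 genes in all and 37 with Nrf2 deficient, and 17 named genes lost their adjusted p under it.

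With each library left out in turn, the called genes numbered 276 to 784, the higher 231 to 688, the lower 41 to 108, those with Nrf2 intact 325 to 954, those with Nrf2 deficient 18 to 81, and the interaction genes 8 to 127. Fewer libraries enter these fits, and where 1 library is left in a group it is assumed to vary like the others. Signs turned only for 5 genes with no call. Nfe2l2 had a p65 term of 0.064 with p65 status alone. Rela had 0.0088 under library totals only and −0.10 to 0.024 over the fits with 1 library left out (0.024 without DKO 3). Sox9 had −0.15 with p65 status alone and −0.087 to 0.11 over the latter (−0.087 without Nrf2 KO 2, −0.03 without DKO 1). Hba-a2 ranged from −0.15, without Nrf2 KO 2, to 1.35. Mup12 ranged from −0.44 to 0.99, and was −0.44 and −0.36 without Nrf2 KO 1 and Nrf2 KO 2. Genes with few counts, such as lymphocyte markers, limit what these depths can show.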

Other observations

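Interaction genes were unevenly placed in the genome. Of the 64 genes with an interaction at an adjusted p of 0.05, 22 lay on chromosome 4, 2.56% of its 858 tested genes, and the next highest share was 0.631% (5 of 792) on chromosome 1. Mup12, Tmem51, Zfp982 and Efhd2 were among the 22. So were Mup1, Mup2, Mup7, Mup8, Mup9, Mup11, Mup14 and Mup20, and the pairs Cyp4a31 with Cyp4a32 and Zfp982 with Zfp984. The 22 genes are therefore not 22 separate families, and reads may be shared among near-identical copies. The uneven placement was noticed in the data and was not tested.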
